A study of Mus musculus with 6 samples.

Results

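The multipotent progenitor MPP2 and the megakaryocyte-erythroid progenitor MEP of mouse bone marrow were compared in animals heterozygous for Mof, the lysine acetyltransferase encoded by Kat8. Both groups had the genotype Mof -/+, so the comparison is one of cell populations on a shared heterozygous background. The members are the 3 heterozygous MPP2 libraries and the 3 heterozygous MEP libraries, 6 of the 36 libraries of the study. Each library was made with CEL-Seq2, which reads barcoded 3′ ends of polyadenylated transcripts, from a sort of 15 cells. By its gate, MPP2 was CD150+ Flt3- within the CD34+ CD48+ part of the LSK compartment (lineage-negative, Sca-1+, cKit+). The MEP gate took lineage-negative cKit+ cells without Sca-1, IL7r, CD34 or CD16/32 on the surface. The other heterozygous populations used for reference were MPP3, MPP4 and the common myeloid progenitor CMP, and the same 5 populations were present as wild type, each with 3 libraries. The labels used here give no age, sex or strain, and do not say that a group's 3 libraries were taken from different mice; the p-values therefore reflect library-to-library spread, which could be technical alone.

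In the haematopoietic tree, MPP2 is a short-lived multipotent cell with a bias towards platelets and red cells, and MEP lies further along the same route, committed to megakaryocytes and erythrocytes. Erythroid commitment is driven by the transcription factors Gata1 and Klf1, which switch on carbonic anhydrases, haem synthesis and finally globin. Megakaryocytes build platelets and express the adhesion receptor Itga2b, the chemokine Pf4 and the thrombin receptor F2r. Cells leaving quiescence enlarge their ribosome, mitochondrial and chaperone machinery, while immediate early genes such as Jun and Nr4a1 are transcribed within minutes of a signal.

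The deposited values were turned back into whole counts and set to library totals, and levels are given as counts per 1000000 gene counts of a library (CPM). The MPP2 libraries held 39738, 19221 and 41452 counts, and the MEP libraries 77136, 75108 and 87730, so that 1 count in the shallowest MPP2 library equalled 52.03 CPM. From 5265 to 7450 genes were detected in an MPP2 library and from 8364 to 8745 in an MEP library. By the sample titles, MPP2 belongs to a sample of the MPP populations and MEP to a late progenitor sample with CMP. Such a sample is called a pool here, and the labels used do not say whether its libraries were prepared or sequenced together. Population and pool cannot be told apart. Within such a design, fewer cells of a type and less RNA per cell cannot be told apart either. Throughout, the values of libraries 1, 2 and 3 are given in that order.

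The transcripts behind the sorting markers were checked first. Cd34, the sialomucin that is on MPP2 and absent from MEP by the gates, went against them: it stood at 25.2, 52.0 and 96.5 CPM in MPP2 and at 207, 133 and 217 CPM in MEP. The log2 difference was 1.57 (SE 0.47, limma adjusted p = 0.085), and all MEP libraries lay above all MPP2 libraries. Cd34 was also lower in MPP2 than in MPP3 and MPP4, whose gates share CD34, by a log2 difference of -2.09 (limma adjusted p = 0.00697). Ly6a, which encodes Sca-1, gave 1 count in MPP2 and 0 in MEP, which allows up to 12.5 CPM in MEP. Slamf1, which encodes CD150, gave 0 counts in MPP2, which allows up to 29.9 CPM. Kit, the stem cell factor receptor shared by both gates, overlapped, with 378, 312 and 386 CPM in MPP2 and 480, 373 and 558.5 CPM in MEP (log2 difference 0.37, SE 0.33, limma adjusted p = 0.608). None of the 7 sorting marker transcripts that passed the filter was called between MEP and MPP2. In wild type, Cd34 followed the gates, with 194, 0 and 177 CPM in MPP2 and 0 counts in all 3 MEP libraries. Because heterozygous Cd34 went against the gates, MPP2 and MEP stand throughout for the libraries so labelled.

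Of Apoe, F2r and Car1, the 3 genes taken as markers of these cells, only Car1 was called between the populations. Car1 encodes carbonic anhydrase 1, an abundant enzyme of young erythroid cells, and lies at chr3:14766216-14808368 on the minus strand (GRCm38). Its level was 125.8, 728 and 289.5 CPM in MPP2 and 2502, 2010 and 1687 CPM in MEP. The means were 381 ± 312 CPM (SD, n = 3) and 2067 ± 410 CPM (SD, n = 3), 5.42-fold apart, and the groups did not overlap. The log2 difference was 2.70 (SE 0.56, limma adjusted p = 0.0079). The call was lost without MEP library 1, without MPP2 library 1, over all 36 libraries and after thinning to equal depth, where the log2 difference was 3.80 (adjusted p = 0.099). Apoe, which encodes the lipid carrier apolipoprotein E (chr7:19696109-19699188, minus strand), stood at 1409, 780 and 458 CPM in MPP2 and at 765, 905 and 1071 CPM in MEP. The Apoe groups overlapped, with a log2 difference of 0.18 (SE 0.41, limma adjusted p = 0.867) and a pooled count ratio of MEP to MPP2 of 1.03 (95% interval 0.801 to 1.33, counting error only). F2r, the thrombin receptor of platelets and progenitors (chr13:95601803-95618487, minus strand), stood at 352, 260 and 555 CPM in MPP2 and at 220, 240 and 205 CPM in MEP. For F2r the MPP2 libraries lay above all MEP libraries, but the difference of -0.71 (SE 0.53) was not called (limma adjusted p = 0.52).

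**Figure D1:**
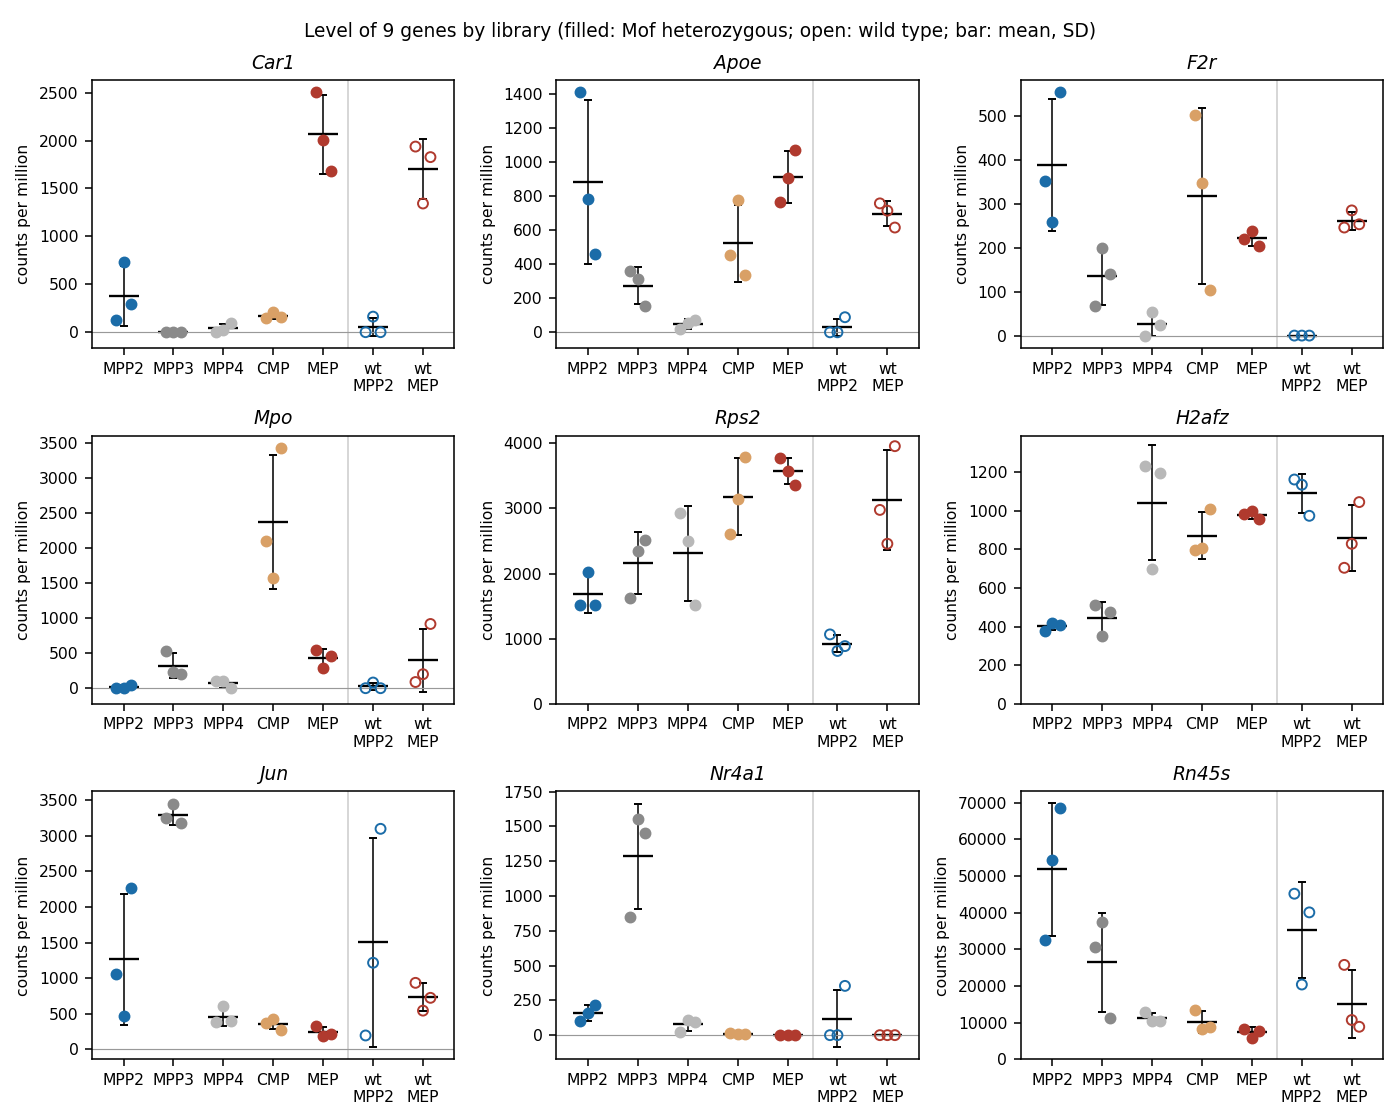
Level of 9 genes in CPM (y axis) in each library of the 5 heterozygous populations (filled points) and of wild-type MPP2 and MEP (open points). Black bars give the mean and the SD of 3 libraries. Car1, Mpo and Rps2 are higher in all heterozygous MEP libraries than in all heterozygous MPP2 libraries, Jun, Nr4a1 and Rn45s are lower, and Apoe overlaps.

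Across all genes, limma called 53 genes higher in MEP (0.663% of 7988 tested) and 43 higher in MPP2 (0.538%) at a nominal false discovery rate of 0.05. In simulated data, unchanged genes made up more of limma's calls than this rate allows. Nearly all of those were low genes called higher in MEP. The median log2 difference over all genes tested was 0.18, and 1325 genes had an unadjusted p under 0.05. All 3 MEP libraries lay above all 3 MPP2 libraries in 869 genes (10.9%), and the reverse held in 516 genes (6.46%). TMM scaling called 95 genes higher in MEP and 33 higher in MPP2, and moved the median of all genes to 0.31. When all libraries were thinned to 19221 counts, the median fell to -0.0021 and 12 genes were called, of which Mpo and Rps2 were higher in MEP and Rn45s, Malat1, Beta-s, Jun, Nr4a1, Ccl4, Tmsb4x, Gm17821, A630089N07Rik and A130077B15Rik were higher in MPP2. After thinning, 52 of the 53 and all 43 genes kept the sign of their difference. Of the 53 genes called higher in MEP, 15 had 0 counts in every MPP2 library, and 25 were abundant enough for edgeR, which called 16 of them. Of the 43 called higher in MPP2, 21 were tested by edgeR and 18 were called. The number of calls ranged from 30 without MEP library 1 to 326 without MPP2 library 3.

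**Figure D2:**
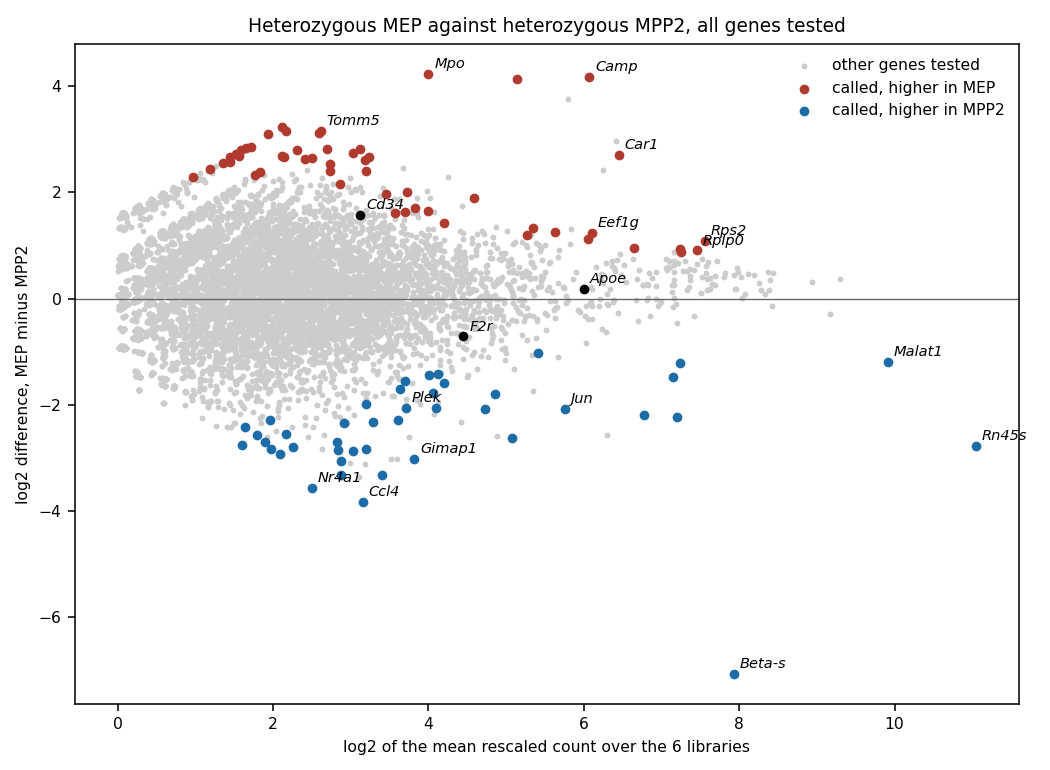
log2 difference of heterozygous MEP minus MPP2 (y axis) against the log2 of the mean rescaled count over the 6 libraries (x axis) for the 7988 genes tested. Red points were called higher in MEP (53 genes), blue points higher in MPP2 (43 genes), and black points are genes named in the text that were not called. Rn45s and Malat1 are the most abundant called genes and are both higher in MPP2.

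Called genes of the erythroid list lay on both sides. Of 34 members tested, 2 rose in MEP (Car1 and Atp1b2), 2 fell (Alas2 and Beta-s) and 30 were not called; 21 were positive and 13 negative, with a median log2 difference of 0.36 against 0.18 over all genes. Atp1b2, a beta subunit of the sodium-potassium pump, stood at 0, 0 and 24.1 CPM in MPP2 and at 90.8, 93.2 and 205 CPM in MEP (log2 difference 2.79, SE 0.73, limma adjusted p = 0.044). Klf1, the erythroid zinc finger activator, had 0, 52.0 and 72.4 CPM in MPP2 and 130, 133 and 217 CPM in MEP. The Klf1 groups did not overlap, yet the difference of 1.98 (SE 0.86) was not called (limma adjusted p = 0.229). For Gata1 the MEP libraries held 181.5, 253 and 319 CPM and the MPP2 libraries 226.5, 52.0 and 72.4 CPM, a difference of 1.22 (SE 0.73, limma adjusted p = 0.415). The erythropoietin receptor Epor and the red cell surface protein Ermap were at 0 in MPP2 library 1 and highest among the MPP2 libraries in library 2, at 156 and 364 CPM. In that same library Ermap exceeded all MEP libraries, which held 311, 280 and 114 CPM. Car2, a second carbonic anhydrase, did not separate the groups, with 629, 936.5 and 676 CPM in MPP2 and 648, 972 and 695 CPM in MEP.

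Globin and Alas2 transcripts were higher in MPP2. Beta-s, an adult beta-globin transcript, stood at 5159, 7128 and 7913 CPM in MPP2 and at 0, 13.3 and 308 CPM in MEP. The MPP2 mean was 62.9-fold the MEP mean, and the log2 difference was -7.06 (SE 0.89, limma adjusted p = 7.66e-06). All but 1 of the 28 MEP counts came from MEP library 3; without it MEP held 1 count, a mean of 6.66 CPM, and the log2 difference was -8.41. Beta-s was called in all 30 alternative fits. Alas2, the first enzyme of haem synthesis in erythroid cells, had 50.3, 312 and 241 CPM in MPP2, while MEP had a single count in library 2 (log2 difference -3.32, SE 0.82, limma adjusted p = 0.0327). The alpha-globin Hba-a1 followed the same order, at 151, 260 and 265 CPM against 0, 0 and 45.6 CPM, without being called (limma adjusted p = 0.0762). The anion exchanger Slc4a1 came almost wholly from MPP2 library 2, at 624 CPM, with 25.2 and 0 CPM in libraries 1 and 3 and 0 counts in MEP. The other populations of the MPP pool also held Beta-s, with a mean of 971 CPM in MPP3 and, in MPP4, 7631, 897 and 100200 CPM. CMP held 22.4 CPM. The part of red cells or free red cell RNA in these levels was not tested.

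The megakaryocyte and platelet list was lower in MEP. Of 26 members tested, 20 had a negative and 6 a positive difference, with a median of -0.60 against 0.18 over all genes, but only Plek was called. In wild type the list's median was 0.95, on the other side of 0. Plek encodes pleckstrin, a protein kinase C substrate of platelets (chr11:16971206-17052381, minus strand). It stood at 378, 208 and 314 CPM in MPP2 and at 104, 26.6 and 68.4 CPM in MEP, a log2 difference of -2.06 (SE 0.54, limma adjusted p = 0.0435; edgeR adjusted p = 0.0211). Itga2b, the alpha IIb integrin of platelets, split the MPP2 group, with 302 and 410 CPM in libraries 1 and 3 and 0 in library 2, against 207, 53.3 and 57.0 CPM in MEP. Pf4, platelet factor 4, had 226.5, 0 and 169 CPM in MPP2 and 181.5, 13.3 and 22.8 CPM in MEP. Summed over the whole list, MPP2 libraries held 5637, 1509 and 6007 CPM and MEP libraries 2930, 1797 and 2086 CPM. MPP2 library 2 thus fell below all MEP libraries, and it was also the library with the most Ermap, Slc4a1 and Car1 of the MPP2 group. The call of Plek was kept in 13 of 30 alternatives. It was lost without any 1 of the MEP libraries and without MPP2 library 1 or 3.

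Promoter sequences of 3 genes of these lists are shown because GATA factors bind erythroid and megakaryocyte promoters, and because Alas2, Klf1 and Pf4 behaved differently in the same libraries. The windows run from 250 bases before to 50 bases after the start site (RefSeq, GRCm38.p6), 5′ to 3′ on the strand of the gene. Capitals mark matches to AGATAA or TGATAA on either strand; 18.6% of 32851 promoter windows of the same length hold at least 1. The Alas2 window (chrX:150547167-150547466, plus strand) has its match on the reverse strand 86 bases before the start, the Klf1 window (chr8:84901732-84902031, plus strand) has one 80 bases before the start, and the Pf4 window (chr5:90772185-90772484, plus strand) has one 36 bases after it.
Alas2: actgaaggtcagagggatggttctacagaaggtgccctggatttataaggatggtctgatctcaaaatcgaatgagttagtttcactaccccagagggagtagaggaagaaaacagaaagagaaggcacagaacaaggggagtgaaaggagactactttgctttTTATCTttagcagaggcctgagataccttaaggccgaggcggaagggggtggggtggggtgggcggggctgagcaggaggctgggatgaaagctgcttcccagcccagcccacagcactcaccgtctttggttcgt
Klf1: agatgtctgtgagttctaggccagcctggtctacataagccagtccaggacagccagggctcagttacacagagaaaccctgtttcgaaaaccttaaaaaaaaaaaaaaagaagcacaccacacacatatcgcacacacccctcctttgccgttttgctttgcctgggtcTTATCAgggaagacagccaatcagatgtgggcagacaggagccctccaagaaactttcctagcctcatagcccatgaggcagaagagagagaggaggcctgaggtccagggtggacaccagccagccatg
Pf4: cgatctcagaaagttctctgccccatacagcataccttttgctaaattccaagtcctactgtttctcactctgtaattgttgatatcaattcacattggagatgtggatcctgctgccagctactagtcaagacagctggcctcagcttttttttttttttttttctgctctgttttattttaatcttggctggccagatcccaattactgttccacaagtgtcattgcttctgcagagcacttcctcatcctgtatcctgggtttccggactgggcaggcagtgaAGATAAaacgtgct
Of the erythroid list, 27 genes had a window and 15 of them a match, and of the megakaryocyte list 8 of 27. A gene was counted if any of its windows held a match. These counts are thus of genes, unlike the share of single windows above, and the share of all genes was not counted. Neither the 3 Apoe windows nor the F2r window holds these letters. A match describes letters in the window and not a bound site.

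Several granule protein genes of the myeloid lineage were higher in MEP. Of 23 members of the myeloid priming list tested, 5 rose in MEP (Mpo, Prtn3, Ctsg, Lgals1 and Srgn) and none fell; 12 were positive and 11 negative, with a median of 0.21 against 0.18 over all genes. Mpo encodes myeloperoxidase, the peroxidase of primary granules (chr11:87793581-87804413, plus strand). Its level was 0, 0 and 48.2 CPM in MPP2, 2 counts in all, and 544.5, 293 and 456 CPM in MEP. The log2 difference was 4.23 (SE 0.58, limma adjusted p = 4.08e-05), and the pooled count ratio of MEP to MPP2 was 21.8 (95% interval 5.87 to 182, counting error only). Mpo kept its call in 29 of 30 alternatives, Prtn3 in 23 of 29, Lgals1 in 14 of 30, Srgn in 13 of 30 and Ctsg in 11 of 26. The serine proteases of the same granules, Prtn3 (proteinase 3) and Ctsg (cathepsin G), had log2 differences of 2.61 (SE 0.53, limma adjusted p = 0.0064) and 2.67 (SE 0.68, limma adjusted p = 0.0396). Prtn3 stood at 50.3, 0 and 48.2 CPM in MPP2 and at 259, 200 and 205 CPM in MEP. Elane, the elastase of the same granules, gave 0 counts in MPP2 and 12.96, 53.3 and 11.4 CPM in MEP, too few for the test. All 3 proteases and Mpo were higher still in CMP, where Mpo averaged 2375 CPM, Prtn3 1003 CPM, Ctsg 590.3 CPM and Elane 325 CPM. The granule proteoglycan serglycin, Srgn, rose from 680, 312 and 844 CPM in MPP2 to 1180, 1278 and 1277 CPM in MEP (log2 difference 1.12, SE 0.28, limma adjusted p = 0.0396). Mast cell carboxypeptidase Cpa3 rose from 25.2, 0 and 48.2 CPM to 207, 173 and 274 CPM (log2 difference 2.82, SE 0.66, limma adjusted p = 0.0239). In wild type the log2 differences were 0.04 for Prtn3, 0.04 for Srgn and 0.48 for Lgals1, with groups that overlapped. Ctsg (2.29) and Cpa3 (2.04) were positive there. Mpo stood at 0, 81.0 and 0 CPM in wild-type MPP2 and at 88.1, 200 and 918 CPM in wild-type MEP. None of these genes was called in wild type.

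Late neutrophil genes were a different case, since 1 library carried them. Camp, the antimicrobial peptide precursor of secondary granules, had 0 counts in MPP2 and 38.9, 39.9 and 5551 CPM in MEP libraries 1, 2 and 3. Lcn2, the iron-binding lipocalin of the same granules, had 0 counts in MPP2 and 51.9, 66.6 and 2827 CPM in MEP. Both were called (limma adjusted p = 0.0386 for Camp and 0.0096 for Lcn2), and neither was called without MEP library 3 (adjusted p = 0.299 and 0.157). The summed level of the mature neutrophil list, of which 13 of 21 genes in the tables were tested, was 2919, 1301 and 603 CPM in MPP2 and 583, 879 and 30700 CPM in MEP. Camp and Lcn2 were thus high in MEP library 3 alone, while Mpo was high in all MEP libraries.

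**Figure D3:**
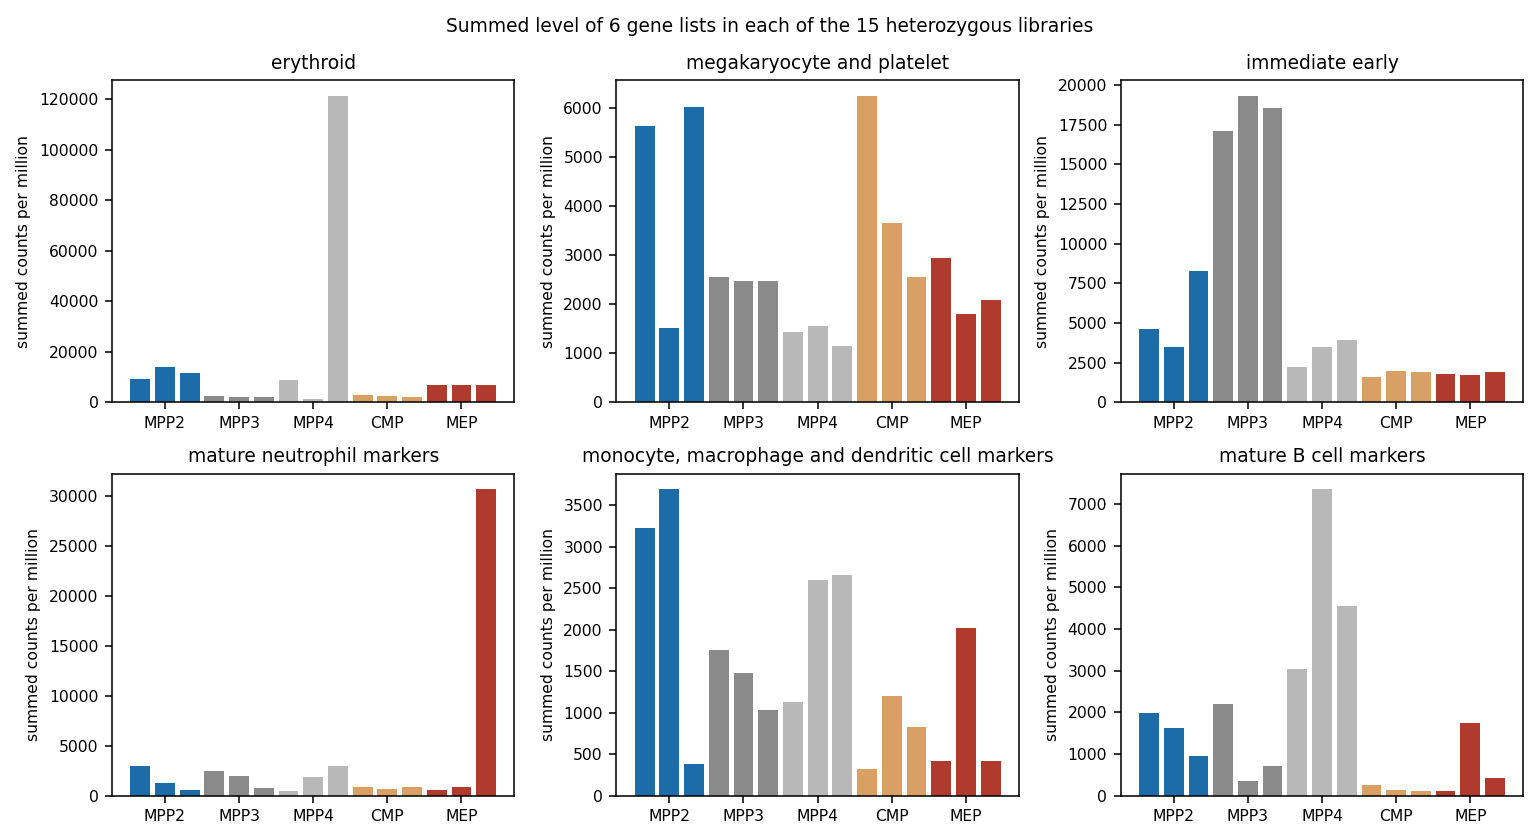
Summed level of 6 gene lists in CPM (y axis, from 0) in each of the 15 heterozygous libraries, 3 bars per population. Megakaryocyte genes are high in MPP2 libraries 1 and 3 and low in library 2 (1509 CPM), neutrophil genes are high in MEP library 3 alone (30700 CPM), and MPP4 library 3 holds 121400 CPM of erythroid genes.

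Genes of protein synthesis, respiration and protein folding were higher in MEP by small differences spread over many genes. The MEP libraries were also the deeper ones. After thinning to equal depth, Rps2 alone of the genes of this paragraph and the next was called. The log2 differences of abundant genes stayed of like size, at 1.32 for Rps2, 0.73 for Rplp0, 1.60 for Atp5g1 and 1.27 for Atp5b. Among lower genes, Timm10 went from 2.72 to 1.95, Ndufb9 from 2.66 to 2.27 and Tomm7 from 2.75 to 3.21. List medians were not computed after thinning, so the part of depth in them was not tested. Cytosolic ribosomal proteins took 15.5%, 16.5% and 15.5% of all counts in the MPP2 libraries and 20.8%, 20.4% and 19.7% in the MEP libraries. Of 75 ribosomal protein genes tested, 63 had a positive difference, with a median of 0.44 against 0.18 over all genes, and 2 were called, Rps2 and Rplp0. Rps2, a protein of the small subunit, rose from 1510, 2029 and 1520 CPM to 3773, 3582 and 3363 CPM, 2.12-fold (log2 difference 1.09, SE 0.23, limma adjusted p = 0.01). Rplp0, the stalk protein of the large subunit, rose from 1887, 1613 and 1616 CPM to 3085, 3235 and 3294 CPM (log2 difference 0.91, SE 0.21, limma adjusted p = 0.017). Eef1g, a subunit of the elongation factor complex, and Eif5a, the hypusinated translation factor, were also called, with log2 differences of 1.24 and 0.96. Of 54 ribosome biogenesis genes tested, 47 had a positive difference (median 0.47) and none was called; the nucleolar protein nucleolin, Ncl, stood at 1258, 1509 and 1954 CPM in MPP2 and at 2100, 1291 and 1425 CPM in MEP.

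The respiratory chain list had a median of 0.59, with 59 of 71 genes positive and 3 called. Atp5g1, a ring subunit of the ATP synthase, rose from 125.8, 156 and 121 CPM to 544.5, 519 and 547 CPM (log2 difference 1.90, SE 0.37, limma adjusted p = 0.0047). Atp5b, the catalytic beta subunit, rose from 327, 468 and 193 CPM to 700.1, 932 and 775 CPM (log2 difference 1.32, SE 0.31, limma adjusted p = 0.0244), and Ndufb9 of complex I rose from 50.3, 0 and 48.2 CPM to 259, 200 and 228 CPM. Genes of mitochondrial protein import were called too: Tomm5 and Tomm7 of the outer membrane pore and Timm23 and Timm10 of the inner membrane import machinery. They form no list used here and were picked from the calls, and the import genes tested were not counted. MPP2 held 3 counts of Tomm7, 1 of Timm23 and 0 of Timm10. In wild type, Tomm7 (-0.55) and Ndufb9 (-0.62) were on the other side of 0, while Tomm5 (2.43), Timm23 (2.59) and Timm10 (2.28) were positive. Tomm5 had 1 count in MPP2 and 181.5, 146.5 and 160 CPM in MEP (log2 difference 3.16, SE 0.56, limma adjusted p = 0.0012), and after thinning it had a log2 difference of 2.80 that was not called. Of 27 protein folding genes tested, 26 had a positive difference, with a median of 0.81, and the chaperonin subunit Cct2 was called (151, 156 and 96.5 CPM against 350, 359.5 and 433 CPM). The glycolysis list had a median of 0.84, with 10 of 14 genes positive and none called.

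Cell cycle genes had medians about as large as those of ribosomal proteins, with 1 call. The DNA replication list had 38 of 48 genes positive (median 0.49) and none called, and the mitosis list had 37 of 47 positive (median 0.53, but -0.74 in wild type) and 1 called. That gene was H2afz, which encodes the histone variant H2A.Z. Its 3 MPP2 libraries held 378, 416 and 410 CPM and its 3 MEP libraries 985, 999 and 958 CPM. The means were 2.44-fold apart with a narrow spread in both groups (log2 difference 1.26, SE 0.28, limma adjusted p = 0.0135). H2afz kept its call in 25 of 30 alternatives. The call was lost after thinning, over all 36 libraries and without any 1 of the MEP libraries. In wild type its log2 difference was -0.35, and the groups overlapped. The proliferation antigen Mki67 overlapped, with 101, 364 and 410 CPM in MPP2 and 285, 519 and 319 CPM in MEP, and so did topoisomerase Top2a.

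**Figure D4:**
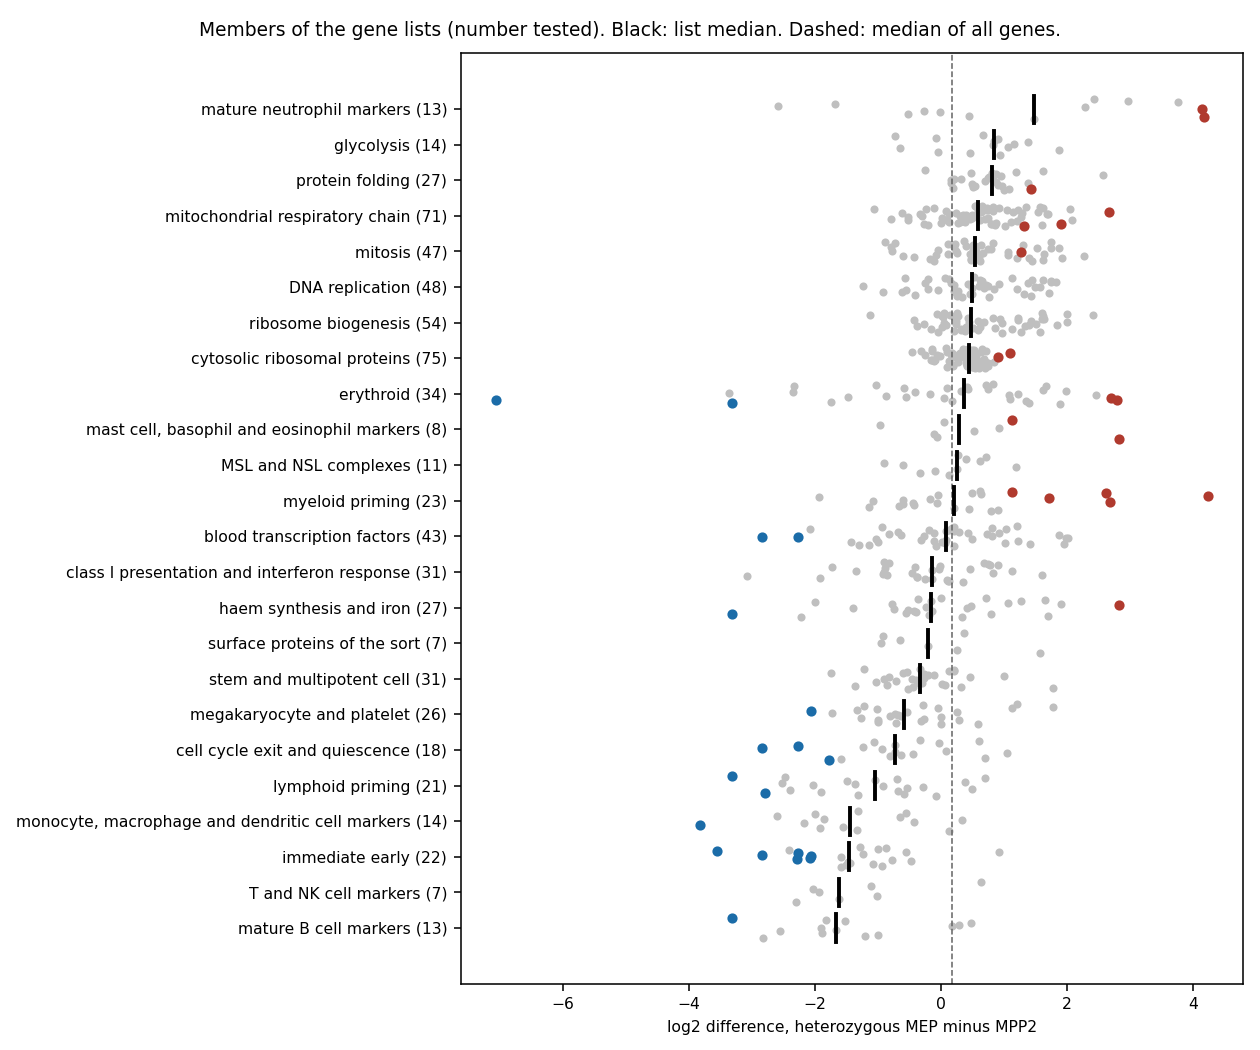
log2 difference of heterozygous MEP minus MPP2 (x axis) of each tested member of the gene lists (y axis, number of tested members in brackets). The stromal and endothelial list and the sex list, with 3 tested members each, are not drawn. Red and blue points were called higher in MEP and in MPP2, black bars are list medians, and the dashed line is the median of all genes, 0.18. Immediate early genes lie left of that line with 1 exception, and protein folding genes lie right of 0 with 1 exception.

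Immediate early genes were lower in MEP. Of 22 members tested, 21 had a negative difference, 6 were called (Jun, Jund, Nr4a1, Klf2, Klf6 and Ier5), and the median was -1.46 against 0.18 over all genes (-0.69 in wild type). Jun, a subunit of the AP-1 transcription factor (chr4:95049034-95052222, minus strand), fell from 1057, 468 and 2268 CPM in MPP2 to 324, 186 and 217 CPM in MEP. Its log2 difference was -2.08 (SE 0.36, limma adjusted p = 0.00088), and it was called in 29 of 30 alternatives. Jund kept its call in 28 of 30, Nr4a1 in 26 of 27, Klf6 in 23 of 28, Klf2 in 20 of 27 and Ier5 in 6 of 26. Jund, its close relative, fell from 503, 364 and 989 CPM to 117, 120 and 137 CPM (log2 difference -2.07, SE 0.38, limma adjusted p = 0.0022). The orphan nuclear receptor Nr4a1 (chr15:101254269-101274795, plus strand) stood at 101, 156 and 217 CPM in MPP2 and gave 0 counts in all MEP libraries, so that it was at least 12.7-fold higher in MPP2 (against 3 counts over the MEP group). Its fitted difference was -3.56 (SE 0.53, limma adjusted p = 0.0001). The Krüppel-like factors Klf2, an inhibitor of cycling in blood cells, and Klf6 had differences of -2.85 and -2.27 (limma adjusted p = 0.0178 and 0.01). Fos, the partner of Jun in AP-1, had 554, 156 and 700 CPM in MPP2 and 51.9, 306 and 148 CPM in MEP, so the groups overlapped (log2 difference -1.44, limma adjusted p = 0.22). The 1 positive member was Myc, at 0.92. Summed over the list, MPP2 held 4605, 3486 and 8275 CPM and MEP 1776, 1718 and 1904 CPM, while MPP3 of the same pool as MPP2 held 17090, 19330 and 18550 CPM.

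Promoters are shown for Jun, Klf6 and Nr4a1, which were picked as the called genes of the list that carry variants of the cAMP response element. CREB and ATF factors bind through such letters. The windows are as above, and capitals mark TGACATCA or TGCGTCA on either strand; either is found in 5.69% of all windows. The Jun window (chr4:95052173-95052472, minus strand) has 1 match, 45 bases before the start, and the Klf6 window (chr13:5861239-5861538, plus strand) has 1 match 119 bases before it. The Nr4a1 window (chr15:101266596-101266895, plus strand) has 4 matches, at 235, 215, 71 and 42 bases before the start; only 3 of 32851 windows have 4 or more.
Jun: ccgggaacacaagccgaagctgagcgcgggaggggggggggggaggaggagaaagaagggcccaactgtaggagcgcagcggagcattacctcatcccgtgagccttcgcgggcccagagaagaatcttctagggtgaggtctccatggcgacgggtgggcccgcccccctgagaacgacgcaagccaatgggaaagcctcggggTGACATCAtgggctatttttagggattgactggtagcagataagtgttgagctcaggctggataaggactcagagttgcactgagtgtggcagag
Klf6: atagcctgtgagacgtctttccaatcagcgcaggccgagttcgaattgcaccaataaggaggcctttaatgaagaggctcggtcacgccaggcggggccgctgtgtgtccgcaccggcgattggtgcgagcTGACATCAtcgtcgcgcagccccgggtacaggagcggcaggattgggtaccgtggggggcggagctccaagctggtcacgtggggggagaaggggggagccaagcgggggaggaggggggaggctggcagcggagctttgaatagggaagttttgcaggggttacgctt
Nr4a1: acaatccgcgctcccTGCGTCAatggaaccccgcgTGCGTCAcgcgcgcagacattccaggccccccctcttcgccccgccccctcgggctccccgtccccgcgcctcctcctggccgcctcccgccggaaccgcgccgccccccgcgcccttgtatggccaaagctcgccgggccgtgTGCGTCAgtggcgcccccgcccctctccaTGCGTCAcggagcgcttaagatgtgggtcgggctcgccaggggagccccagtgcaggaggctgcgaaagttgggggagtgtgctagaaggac
Of the whole immediate early list, 23 genes had a window and 5 held a match, so most members of the list do not carry these letters in the window. This too is a count of genes with a match in any window, unlike the share of single windows. Jund, Klf2 and Ier5, which were also called, were not among the 5. Fosb and Tnfaip3 were among them and were not called. A link between these letters and the lower levels in MEP was not tested.

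Lymphoid genes and some immune genes were also lower in MEP. Of 21 tested members of the lymphoid priming list, 18 had a negative difference (median -1.05) and 2 were called. Dntt, the terminal transferase of developing lymphocytes, stood at 75.5, 156 and 145 CPM in MPP2 and at 0, 0 and 22.8 CPM in MEP (log2 difference -2.80, SE 0.70, limma adjusted p = 0.0373), and Vpreb3, a protein of B cell precursors, at 403, 104 and 314 CPM against 0, 0 and 68.4 CPM (log2 difference -3.32, SE 0.62, limma adjusted p = 0.0025). Both were higher in MPP4, at means of 1544 and 882 CPM. Gimap1, a GTPase of lymphocyte survival, fell from 352, 416 and 314 CPM in MPP2 to 51.9, 26.6 and 22.8 CPM in MEP, 10.7-fold (log2 difference -3.01, SE 0.47, limma adjusted p = 0.000167). Ccl4, a chemokine of activated leukocytes, fell from 277, 312 and 145 CPM to a single count in MEP (log2 difference -3.82, SE 0.55, limma adjusted p = 5.38e-05). Thy1, a glycoprotein of stem cells and T cells, and Hopx, a homeodomain protein, gave 0 counts in MEP and were at least 8.76-fold and 7.97-fold higher in MPP2 (against 3 counts over the group). Btg1, an inhibitor of proliferation, fell from 377.5, 520.3 and 217 CPM to 77.8, 79.9 and 125 CPM (limma adjusted p = 0.0249). Gimap1 kept its call in 28 of 30 alternatives, Ccl4 in 26 of 27, Vpreb3 in 25 of 27 and Btg1 in 23 of 30. Thy1 kept it in 17 of 25, Dntt in 16 of 26 and Hopx in 10 of 25. In wild type, Gimap1 (1.33) and Ccl4 (0.39) were on the other side of 0. Vpreb3 (-3.81), Btg1 (-1.91), Dntt (-0.55), Hopx (-0.42) and Thy1 (-0.26) kept their sign there.

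Markers of other cells were present beside these genes. Summed mature B cell markers stood at 1988, 1613 and 941 CPM in MPP2 and at 117, 1744 and 422 CPM in MEP, with 10 of 13 tested genes negative. Of the defining B cell genes, Cd79a was at 125.8, 260 and 72.4 CPM in MPP2 and at 0, 0 and 68.4 CPM in MEP. Monocyte, macrophage and dendritic cell markers summed to 3221, 3694 and 386 CPM in MPP2 and to 415, 2024 and 422 CPM in MEP, with 12 of 14 tested genes negative, and Ccl4 is itself on that list. T and NK cell markers summed to 1384, 416 and 241 CPM in MPP2 and to 207, 293 and 171 CPM in MEP, with 6 of 7 tested genes negative. The CD3 subunit genes Cd3d and Cd3e were at 0 counts in MPP2. Endothelial Kdr and Cdh5 were at 0 counts in all 6 libraries. The part of such cells in the lymphoid and immune differences was not tested.

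Rn45s, Malat1 and Kcnq1ot1 were higher in MPP2. Rn45s, the ribosomal RNA precursor, took 3.26%, 5.44% and 6.85% of the counts in the MPP2 libraries and 0.841%, 0.579% and 0.785% in the MEP libraries. In CPM these were 32610, 54370 and 68490 against 8414, 5792 and 7854, with a log2 difference of -2.77 (SE 0.26, limma adjusted p = 9.77e-09) that was called in all 29 alternatives that held the gene. Malat1, a long noncoding RNA of nuclear speckles (chr19:5795690-5802672, minus strand), fell from 22420, 18990 and 15250 CPM in MPP2 to 7869, 8415 and 8150 CPM in MEP (log2 difference -1.19, SE 0.17, limma adjusted p = 5.38e-05). Kcnq1ot1, the imprinted transcript antisense to Kcnq1, fell from 3699, 3538 and 1737 CPM to 1309, 985 and 1402 CPM (log2 difference -1.21, SE 0.26, limma adjusted p = 0.0099). Its call was lost after thinning (limma adjusted p = 0.251). In wild type, Kcnq1ot1 was on the other side of 0 (0.63, groups overlapping), while Rn45s (-1.30) and Malat1 (-0.98) kept their sign. Rn45s was also high in MPP3, with a mean of 26470 CPM, and lower in MPP4 (11240 CPM) and CMP (10210 CPM). CEL-Seq2 primes on poly(A) tails, which the ribosomal precursor does not normally carry. With Rn45s left out of the library totals, 89 genes were called, 43 of them higher in MEP.

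Each population was also compared with others of its own pool. These comparisons share libraries with the main comparison, so their values are given side by side and not as independent evidence. MPP2 against the mean of MPP3 and MPP4, all of 1 pool, gave 47 calls (0.588%), 17 of them higher and 30 lower in MPP2; edgeR gave 14 higher and 3 lower. Car1, Apoe and F2r were among these, at log2 differences of 3.80 (limma adjusted p = 1.86e-05), 2.71 (2.06e-05) and 2.50 (0.00319), as were Gata2, a factor of stem cells and megakaryocytes, at 1.99, Plek at 2.11 and Rn45s at 1.61. In MPP3 the mean of Car1 was 0 CPM, and that of Apoe 275 CPM. Lower in MPP2 than in its pool were Cd34, Mpo (-2.54), Tomm5 (-2.22), Tomm7 (-2.39), Timm23 (-2.20) and Ndufb9 (-2.03), each of which had a positive difference of MEP against MPP2. In MPP2 these genes held from 1 count (Tomm5 and Timm23) to 6 counts (Cd34). MPP3 libraries held 58757, 79936 and 71576 counts and MPP4 libraries 118600, 55722 and 41002, so MPP2 was the shallower side here too. Low genes are shifted the same way in both comparisons, and the part of depth was not tested. MEP against CMP gave a single call (0.0125%), Car1, at a log2 difference of 3.49 (SE 0.56, limma adjusted p = 0.0024). CMP held 146, 213 and 154 CPM of Car1. Rps2, Rplp0, Atp5b, H2afz, Jun and Rn45s differed between MEP and CMP by no more than 0.55 in either direction, and none of them was called there.

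The 2 pools were also compared without MPP2 or MEP, as CMP against the mean of MPP3 and MPP4, which gave 71 calls (0.889%). Of the genes lower in MEP than in MPP2, Beta-s (-6.86), Nr4a1 (-3.64), Jun (-1.76), Jund (-1.72), Klf2 (-3.14), Klf6 (-2.73), Ccl4 (-2.93), Vpreb3 (-4.29), Dntt (-3.09) and Gimap1 (-1.80) were called in the same direction between the pools. Rn45s (-0.70) and Malat1 (-0.48) were not. Of the genes higher in MEP, Mpo (4.09), Prtn3 (3.77), Ctsg (4.75), Cpa3 (2.95) and Car1 (3.01) were called in the same direction, and Rps2 (0.53), Rplp0 (0.32), H2afz (0.37) and Atp5g1 (1.07) were not. For the immediate early list the median was -1.95 in this comparison, and for the respiratory chain list it was 0.27.

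**Figure D5:**
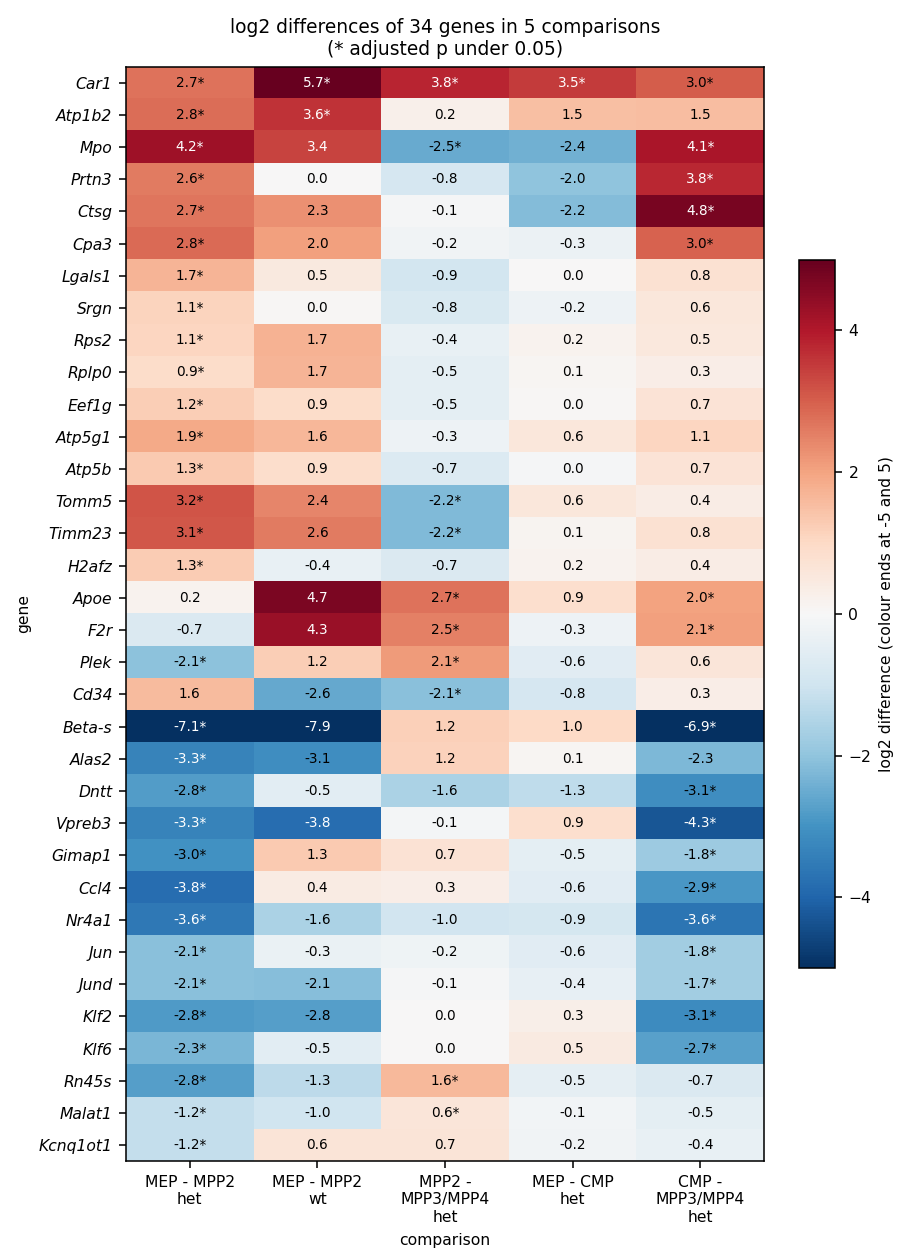
log2 differences (colour and printed value) of 34 genes (rows) in 5 comparisons (columns): MEP minus MPP2 in heterozygous and wild-type libraries, and 3 comparisons among heterozygous populations. Stars mark an adjusted p under 0.05 in limma. Jun and Nr4a1 are starred and negative in the first and the last column, and Car1 is the only gene starred in all 5.

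The same comparison in wild-type libraries shares no library with the heterozygous one, but its MPP2 libraries held only 10331, 12339 and 11295 counts. It gave 12 calls (0.15%), 11 of them higher in MEP, against 36 higher and 23 lower in edgeR, and the median over all genes was 0.54. The call counts of this shallow comparison ranged from 0 to 17 when 1 library was left out. Over all genes, 4613 of 7988 had the same sign in both genotypes. Of the 53 genes called higher in heterozygous MEP, 47 had the same sign in wild type, with a median of 1.07. Of these 53, 11 had 0 counts in all wild-type MPP2 libraries. MEP was the deeper group in wild type too, at 56778, 34996 and 102375 counts, which shifts low genes upwards. A shared positive sign is therefore not independent of depth, and the share over all genes joins both directions. The 3 genes called in wild type were Car1, Atp1b2 and the metallothionein Mt1. Car1 stood at 0, 162 and 0 CPM in wild-type MPP2 and at 1937, 1343 and 1827 CPM in wild-type MEP (log2 difference 5.70, SE 0.96, limma adjusted p = 0.0239). Klf1 was called in wild type (log2 difference 3.55, limma adjusted p = 0.0287), with 0 counts in MPP2. Of the 43 genes called higher in heterozygous MPP2, 27 had the same sign in wild type, with a median of -0.42, and none was called there. That share is near the share of all genes, both directions together. Jund was at -2.13, Klf2 at -2.77 and Beta-s at -7.91 in wild type, against -0.34 for Jun and 1.22 for Plek. Beta-s differed among the wild-type MPP2 libraries, at 27010, 44740 and 354 CPM.

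Whether the difference between the populations depended on genotype was tested by an interaction term. It called 0 of 7988 genes in limma (716 at an unadjusted p under 0.05) and 20 of 2159 in edgeR, all 20 negative. Apoe and F2r had large interaction estimates. In wild type, Apoe stood at 0, 0 and 88.5 CPM in MPP2, 1 count in all, and at 757, 714 and 615 CPM in MEP, and its interaction was -4.52 (limma adjusted p = 0.174). F2r gave 0 counts in wild-type MPP2 and 247, 286 and 254 CPM in wild-type MEP, with an interaction of -5.01 (SE 1.11, limma adjusted p = 0.0891). In wild-type MPP2, Apoe and F2r were thus at or near 0, and neither interaction was called in limma. Whether they were among the 20 edgeR calls was not recorded. The genotypes were also in separate pools, so that the pools differ along with genotype.

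Over the 15 heterozygous libraries, the genes with profiles most like the 3 markers were found by the Pearson correlation of log2 levels, as a description of libraries that share pools and depth. Apoe was most like Tgfbr3 (r = 0.924), Gata2 (0.852) and F2r (0.844). F2r was most like Dach1 (0.887), Stxbp5 (0.848) and Apoe. Car1 was most like Atpif1 (0.903), which encodes the inhibitor of the mitochondrial ATPase, Gm15915 (0.898), an antisense RNA, and Sord (0.889), sorbitol dehydrogenase. Kat8, the gene that is heterozygous in all these libraries, gave 1 count in MPP2 and 2 in MEP and did not pass the filter. Of the 11 tested members of the MSL and NSL complexes, which hold its protein, none was called and the median was 0.25.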

How the data were processed

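Each deposited value is a signal, a gene count scaled by the authors with 1 factor for its library. This was read from the values, which are whole multiples of each library's smallest positive value (within 0.01 counts). Reads were aligned with BWA 0.6.2-r126 to mm10, per the submitters' processing notes; the sources used here do not give the counter, annotation, use of strand or collapsing of molecular identifiers, so overlapping and antisense genes cannot be told apart. Whole counts were recovered by dividing by that smallest value, the 92 spike-in transcripts were left out, and counts were rescaled to library totals, since each population was deposited on its own scale. In the wild-type MEP table the spike-in names are missing and 16696 genes stood against the wrong name; the gene order shared by the remaining tables was used to realign them. The heterozygous MEP table holds no spike-in lines, so RNA per cell was not compared.

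The test was limma 3.58.1 (R 4.3.3, trend in the prior variance) on log2(rescaled count + 1), with totals set to 71576, over the 15 heterozygous libraries of 5 populations; 7988 of 23538 genes with a mean of at least 1 over the 6 compared libraries were tested, with Benjamini-Hochberg adjustment at 0.05. The design named this test for such values. Fold changes on this scale understate low genes, and low genes in the deeper libraries are shifted upwards. Recovered counts were also tested with edgeR 4.0.16 (quasi-likelihood, TMM) and DESeq2 1.42.0 over the 6 libraries; 100% of values came out whole, and each called 48 genes. All 3 tools were tested on simulated data with known changes. There limma gave no wrong direction, but unchanged genes made up more of its calls than the nominal rate allows, well above the share in edgeR or DESeq2. Nearly all of these were low genes called higher in the deeper MEP libraries. Limma failed the tolerance first set for this, and the tolerance was widened after that result was seen; limma was kept as the test fixed in the design. Low genes called higher in MEP by limma alone are therefore the least certain calls. An exact permutation test of 3 against 3 libraries cannot go below 0.1 and was not used. Intervals of pooled count ratios are exact 95% intervals for counting error only; a group at 0 was bounded by 3 counts.

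Named genes are Apoe, F2r, Car1 and the sorting markers; the 15 called genes in each direction with the largest difference and groups that do not overlap; called members of 26 gene lists; Kat8; and the 3 genes most like each marker. Kcnq1ot1, Malat1 and the genes named beside these groups as examples were chosen after their values were seen. Members and lists were chosen with earlier results of these data known. Gene coordinates are from GENCODE vM21 (GRCm38) and promoters from RefSeq (GRCm38.p6); Car1 had no promoter entry. Alternatives were other scalings, pseudocounts, filters, library sets, thinning and leaving out each library.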

Additional observations from a re-analysis of the deposited data

Results flagged for a closer look

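Among the genes named by the rule, 2 had all MPP2 libraries above all MEP libraries in the heterozygotes and below them in wild type. Over all 7988 genes tested the same pattern was seen in 64, of which 5 were called in the heterozygotes, and the opposite pattern in 25. For F2r the difference of differences was -5.01 (limma adjusted p = 0.0891), with 0 counts in the 3 shallow wild-type MPP2 libraries. For 2900060B14Rik, an antisense RNA within Clasp1, it was -5.72 (limma adjusted p = 0.12), from 176, 364 and 96.5 CPM in heterozygous MPP2 against 25.9, 0 and 22.8 CPM in MEP, and 1 count in wild-type MPP2. Neither interaction passed the threshold in limma, and groups of 3 libraries were not tested for single outlying libraries.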

How the results depend on the processing

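None of the 48 called genes named by the rule changed direction under an alternative that held it; Malat1, Kcnq1ot1 and other called genes named as examples were not followed across all alternatives. The 96 calls became 48 in edgeR (19 higher in MEP), 48 in DESeq2 (27 higher), 34 with the 6 libraries alone, 12 after thinning and 2 over all 36 libraries, which include a heterozygous HSC library of 1577 counts; edgeR with RLE scaling gave 42. Leaving out 1 library gave 30 to 326 calls: 30, 37 and 35 without MEP library 1, 2 and 3, 326 without MPP2 library 3, 195 without MPP4 library 3, 61 without CMP library 2 or 3, and 63 without MPP3 library 2. The causes were not tested. The edgeR fit over 15 libraries gave 17 calls for MPP2 within its pool (14 higher), 5 for MEP against CMP and 119 for CMP against MPP3 and MPP4. In wild type, edgeR gave 59 (36 higher), and leaving out 1 library gave 0 to 17; calls fell to 0 without MPP2 library 1, MPP2 library 3 or MEP library 3, to 3 without MEP library 1 and to 4 without MPP2 library 2. The edgeR interaction gave 20, all of them negative.

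Genes not called changed sign in 7 cases: Apoe at -0.12 in edgeR with TMM, -0.146 in edgeR with RLE and -0.21 without MPP2 library 3, within a range of -0.21 to 0.586 when 1 library was left out; Cd48 at -0.312 after thinning and -0.174 without MPP2 library 1 (range -0.174 to 0.72); Fcgr2b at 0.188 without MEP library 1 (range -0.718 to 0.188); and Flt3 at 0.166 without MPP2 library 2 (range -1.26 to 0.166). Leaving out MEP library 3 together with MPP4 library 3 (chosen after seeing the data, as were the fits without Rn45s, with edgeR RLE and with edgeR over 15 libraries) gave 70 calls. Genes near 1 count in MPP2 cannot be told from absent at this depth. No paired analysis was possible because the library numbers are running numbers that no 2 groups share.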
